A study of Mus musculus with 6 samples.

Results

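The genes described here are Trp53, which encodes p53, and 9 genes that p53 is known to activate: Mdm2, Cdkn1a, Ccng1, Plk2, Btg2, Phlda3, Zmat3, Trp53inp1 and Bax. They were chosen by name, and each matched 1 of the 30889 gene rows in the deposited table. All 10 passed the filter on low counts and were among the 18071 genes tested. Mice received by mouth, over 14 days, either phosphate buffered saline (the control, with 3 liver libraries) or an aqueous preparation of Emilia sonchifolia, a herb of the daisy family (the extract, also 3). The sources used here do not state strain, sex, age or dose. They also leave unsaid whether libraries came from different animals; p-values therefore describe how these libraries vary, and that variation may be technical.

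p53 is a transcription factor that is held low in resting cells and accumulates after DNA damage and other stress, largely through a change in the stability of the protein rather than in the amount of its mRNA. It binds DNA as a tetramer at sites built from a pair of short half-sites, and its targets halt the cell cycle, repair DNA, promote cell death and, through Mdm2, bring p53 itself back down. In liver, Cdkn1a, Mdm2 and Ccng1 are widely used as readouts of its activity. Several targets, among them Btg2 and Plk2, are also switched on rapidly by other signals.

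Promoters from RefSeq (build GRCm38.p6, 250 bases before to 50 bases after an annotated start) were matched by symbol for 8 of the 10 genes, all but Zmat3 and Trp53inp1, with 2 starts for Cdkn1a. They are printed for the genes whose values differ most clearly between the groups. Cdkn1a is added because its upstream promoter holds the only full p53 site found in these stretches. Capitals mark matches to the p53 half-site consensus in the first 3 and the palindrome TGACGTCA, the cAMP response element bound by CREB and ATF proteins, in the last 2.
Ccng1 (chr11:40755237-40755536, minus strand): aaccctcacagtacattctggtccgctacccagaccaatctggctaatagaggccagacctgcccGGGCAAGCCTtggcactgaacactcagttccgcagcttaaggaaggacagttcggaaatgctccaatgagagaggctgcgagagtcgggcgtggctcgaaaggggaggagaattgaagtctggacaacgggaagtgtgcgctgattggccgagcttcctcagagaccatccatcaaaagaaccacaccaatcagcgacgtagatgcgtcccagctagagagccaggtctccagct
Mdm2 (chr10:117710709-117711008, minus strand): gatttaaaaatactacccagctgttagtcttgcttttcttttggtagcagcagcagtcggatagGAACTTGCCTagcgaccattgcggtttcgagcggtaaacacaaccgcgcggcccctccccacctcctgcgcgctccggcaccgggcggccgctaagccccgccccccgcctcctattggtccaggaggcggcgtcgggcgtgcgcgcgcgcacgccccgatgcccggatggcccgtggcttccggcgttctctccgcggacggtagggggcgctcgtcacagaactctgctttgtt
Cdkn1a, upstream start (chr17:29090729-29091028, plus strand): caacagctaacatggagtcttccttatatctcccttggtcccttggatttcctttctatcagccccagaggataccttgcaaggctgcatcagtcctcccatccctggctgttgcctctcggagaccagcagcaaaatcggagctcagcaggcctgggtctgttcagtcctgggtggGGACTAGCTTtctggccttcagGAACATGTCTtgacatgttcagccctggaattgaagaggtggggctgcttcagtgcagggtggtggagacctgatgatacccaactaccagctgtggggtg
Btg2 (chr1:134079106-134079405, minus strand): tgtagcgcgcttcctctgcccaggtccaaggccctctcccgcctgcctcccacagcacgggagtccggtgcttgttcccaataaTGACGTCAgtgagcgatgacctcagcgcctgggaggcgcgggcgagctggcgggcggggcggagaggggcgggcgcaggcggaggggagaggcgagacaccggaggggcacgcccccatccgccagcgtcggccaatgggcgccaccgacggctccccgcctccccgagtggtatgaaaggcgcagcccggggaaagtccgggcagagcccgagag
Plk2 (chr13:110394794-110395093, plus strand): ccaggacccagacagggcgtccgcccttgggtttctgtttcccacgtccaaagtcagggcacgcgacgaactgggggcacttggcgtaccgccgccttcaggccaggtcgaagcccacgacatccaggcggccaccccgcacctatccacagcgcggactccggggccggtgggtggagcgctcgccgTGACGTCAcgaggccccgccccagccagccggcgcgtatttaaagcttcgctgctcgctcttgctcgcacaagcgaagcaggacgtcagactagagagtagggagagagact

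An exact p53 half-site, which reads as its own consensus on the other strand, was found in 5 of the 9 promoters, against 8.36% of all 32544 promoters of the same length and 6.97% of the 15609 promoters of genes tested. These were the promoters of Trp53, Mdm2, Ccng1, Bax and the upstream start of Cdkn1a. A full site, meaning a pair of half-sites at most 13 bases apart, was found in 1 of the 9, that of the upstream start of Cdkn1a, against 0.0737% of all promoters and 0.0384% of those of genes tested. With 1 mismatch outside the core allowed in each half-site it was again that promoter alone, against 1.39% and 1.11%. The stretch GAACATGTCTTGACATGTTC there (chr17:29090928-29090947) holds a half-site followed directly by another with 1 mismatch, and begins 51 bases before the upstream start and 2841 bases before the downstream start of Cdkn1a. The letters TGACGTCA were present in the promoters of Btg2 and Plk2, 166 and 62 bases before the start, and in 1.80% of all promoters and 2.72% of those of genes tested. That motif was looked for after these sequences had been read. A match is a run of letters, and whether any factor bound there was not measured. Only these promoter stretches were searched, so sites elsewhere in or near the genes would not have been seen.

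With the extract, transcripts of 5 of the 10 genes rose: Plk2, Ccng1, Btg2, Mdm2 and Zmat3, by 1.36-fold to 2.29-fold. None was called lower (edgeR's quasi-likelihood test with Benjamini-Hochberg adjustment over all genes, threshold 0.05). In the same test 26.9% of all 18071 genes were called, 14.2% higher and 12.8% lower. At an unadjusted p under 0.05, 6 of the 10 were higher and 1 lower, beside 19.6% and 19.4% of all genes. DESeq2 called 6 higher and 0 lower, beside 12.3% and 10.9% of the genes it tested (23.2% in all). With limma on FPKM 5 were higher and 0 lower, beside 13.9% and 20.7% (34.6% in all). Of the 5 genes with a mean of at least 5 FPKM limma called 3, beside 50.4% of all genes at that level, so among abundant genes a call was common. Leaving out controls 1, 2 and 3 in turn left 6, 5 and 7 of the 10 called, beside 23.7%, 17.5% and 24.9% of all genes, and leaving out extracts 1, 2 and 3 left 4, 4 and 5, beside 18.4%, 17.1% and 19.1%. The median log2 fold change was 0.46 over the 10 genes and -0.02 over all genes tested. Control and extract FPKM values lay fully apart for 7 of the 10 genes, 6 with every extract library above and Trp53 with every extract library below, where 44.6% of all genes tested lay apart, 17.7% above and 26.9% below. FPKM is a level scaled for gene length and for the fragments mapped in a library, so it can be compared between genes, while the fold changes come from the estimated counts.

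**Figure D1:**
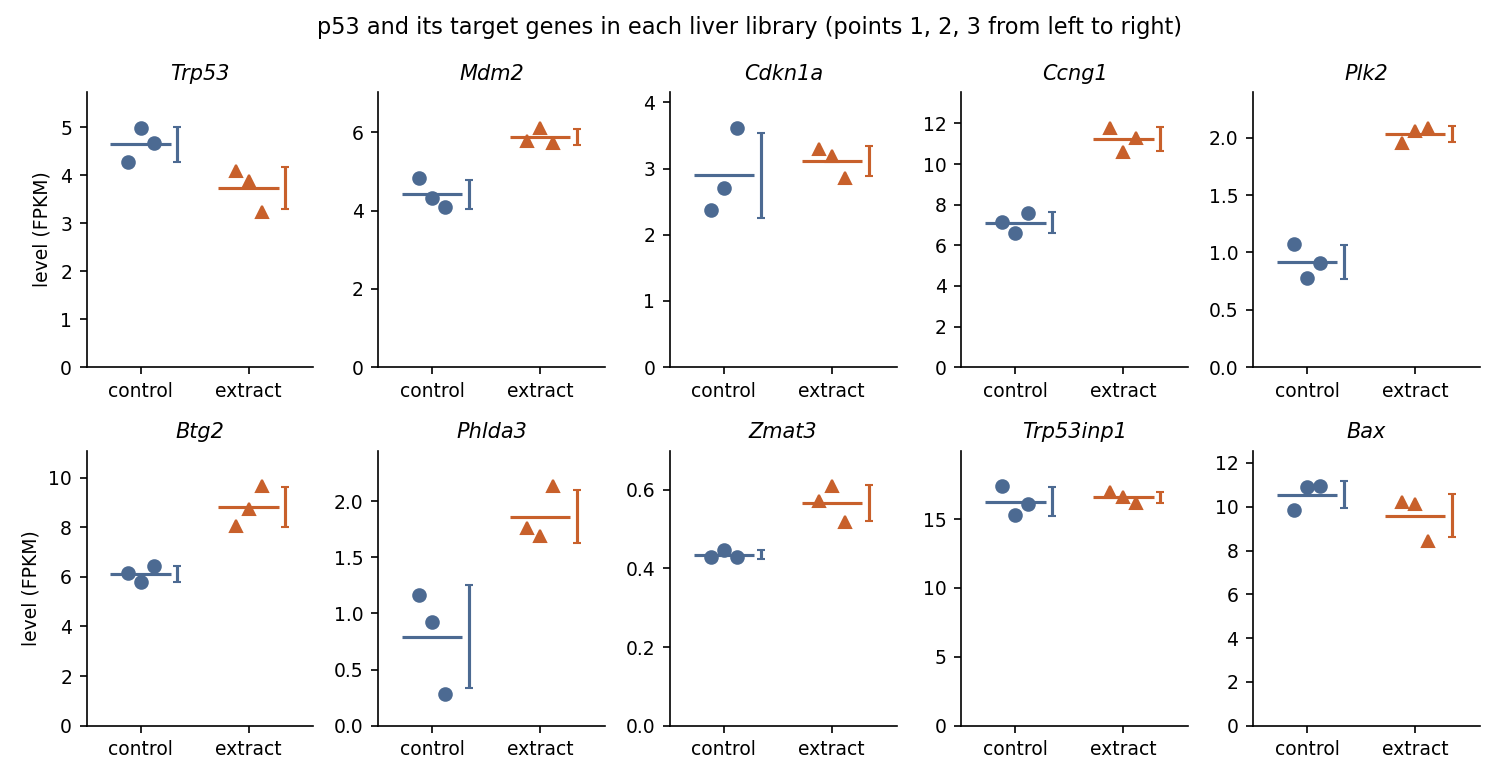
Level of each of the 10 genes in FPKM (vertical axes, each from 0 and with its own scale) in the 3 control libraries (circles) and the 3 extract libraries (triangles); lines are means and bars are SD. The extract libraries lie above every control library for Mdm2, Ccng1, Plk2, Btg2, Phlda3 and Zmat3, below for Trp53, and overlap with the controls for Cdkn1a, Trp53inp1 and Bax.

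The RNA came from whole liver, where fewer cells of a type and less RNA per cell cannot be told apart. All 8 hepatocyte markers were present in every library, with summed levels of 38413 to 47353 FPKM in control and 38367 to 39129 FPKM in extract, 3 called higher and 3 lower. Red cell markers were lower for 7 of 8 genes (1272 to 1617 against 198 to 236 FPKM summed), those of neutrophils and monocytes for 8 of 9 (379 to 456 against 174 to 182) and those of Kupffer cells, the resident macrophages, for 10 of 10 (457 to 480 against 275 to 292). B and plasma cell markers were lower for 6 of 8 genes (87.2 to 149 against 37.2 to 47.0 FPKM summed), T and NK cell markers for 6 of 9 (7.01 to 8.17 against 3.31 to 3.92) and sinusoidal endothelial markers for 6 of 8 (51.5 to 57.5 against 39.0 to 41.6). Of 8 stellate cell markers 2 were higher and 1 lower, with summed levels of 33.9 to 39.3 against 35.7 to 40.5 FPKM. DESeq2 called 2 of these higher and 0 lower, and limma 0 and 0. Of 6 cholangiocyte markers 1 was lower, with 35.9 to 49.0 against 29.1 to 36.7 FPKM. Beside these marker counts from edgeR, 14.2% of all genes tested were called higher and 12.8% lower. The shares for stellate cells (25.0% and 12.5%) and cholangiocytes (16.7% lower) were not far from that. Lcn2 made up most of the neutrophil and monocyte sums, at 269 to 401 FPKM in control and 159 to 170 in extract. S100a9 of that list fell more steeply, from 42.4 ± 14.7 to 6.24 ± 0.830 FPKM (SD, n = 3). The part of any of these cells in the values of the p53 genes was not tested. Each library held 51219533 to 61432016 estimated counts.

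Trp53, the gene of p53 itself (ENSMUSG00000059552, GRCm38 chromosome 11, gene span 69580359 to 69591873), had FPKM values of 4.27, 4.99 and 4.67 in the order of control libraries 1 to 3, and of 4.09, 3.88 and 3.24 for extracts 1 to 3. Every extract library was below every control library, with extract 3 the lowest, but the gap between the groups was narrow. Its log2 fold change was -0.25 ± 0.09 (SE), with a 95% interval from -0.47 to -0.03 before adjustment (unadjusted p = 0.0294, edgeR adjusted p = 0.0879), so it was not called.

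Mdm2 encodes the ubiquitin ligase that marks p53 for destruction and is itself switched on by p53, which closes a feedback loop (ENSMUSG00000020184, chromosome 10, gene span 117688875 to 117710758). It measured 4.83, 4.33 and 4.10 FPKM across the controls, against 5.78, 6.11 and 5.72 with extract, with no overlap. Mdm2 rose 1.39-fold (log2 fold change 0.47 ± 0.07 SE, edgeR adjusted p = 0.00216), and it was called whichever library was left out. The controls of Mdm2 and Trp53 overlapped in level, while in the extract libraries Mdm2 was above Trp53 throughout. The ratio of their FPKM values was 1.13, 0.869 and 0.877 in the controls and 1.41, 1.58 and 1.77 in the extract libraries, or 0.959 ± 0.149 against 1.58 ± 0.176 (SD, n = 3, two-sided exact permutation p = 0.1, the smallest p that 3 against 3 can give). This ratio was chosen after its values were seen.

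Of the genes that restrain the cell cycle, Ccng1, Btg2 and Plk2 rose and Cdkn1a was not called. Ccng1, or cyclin G1, guides a phosphatase to Mdm2 (ENSMUSG00000020326, chromosome 11, gene span 40748552 to 40755311), and it had control levels of 7.14, 6.58 and 7.62 FPKM and extract levels of 11.8, 10.6 and 11.3. The lowest extract library was well clear of the highest control. Ccng1 rose 1.64-fold (log2 fold change 0.72 ± 0.08 SE, edgeR adjusted p = 0.000420), and its estimates with 1 library left out ran from 0.66 to 0.78, all called.

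Btg2, an antiproliferative protein that recruits the machinery of mRNA deadenylation (ENSMUSG00000020423, chromosome 1, gene span 134075170 to 134079120), stood at 6.16, 5.80 and 6.44 FPKM without extract, and with it at 8.06, 8.72 and 9.65. Extract 3 was the highest, and the groups did not overlap. Btg2 rose 1.50-fold (log2 fold change 0.58 ± 0.09 SE, edgeR adjusted p = 0.00211).

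Plk2, a polo-like kinase that acts in centriole duplication and stress responses (ENSMUSG00000021701, chromosome 13, gene span 110395046 to 110400844), measured 1.08, 0.781 and 0.904 FPKM across the controls, against 1.96, 2.05 and 2.08 with extract. It was a low transcript whose 3 extract values lay close together, far above the controls. Plk2 rose 2.29-fold, the largest rise among the 5 genes called, or 1.20 ± 0.14 on the log2 scale (SE; adjusted p = 0.000599 by edgeR). Btg2 and Plk2, like Ccng1 and Mdm2, were called in all 6 fits that left out 1 library.

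Cdkn1a encodes p21, the inhibitor of cyclin-dependent kinases through which p53 arrests the cell cycle (ENSMUSG00000023067, chromosome 17, gene span 29090976 to 29100727). It had control levels of 2.37, 2.71 and 3.61 FPKM and extract levels of 3.29, 3.18 and 2.86. Control 3 was above every extract library and the other controls were below them, so the groups overlapped. On the log2 scale the difference was 0.16 ± 0.15 (SE; adjusted p = 0.466 by edgeR), with a 95% interval from -0.18 to 0.51 before adjustment. Without control 3 it was 0.36 and was called (edgeR adjusted p = 0.0386), so the result for Cdkn1a rests on that library.

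**Figure D2:**
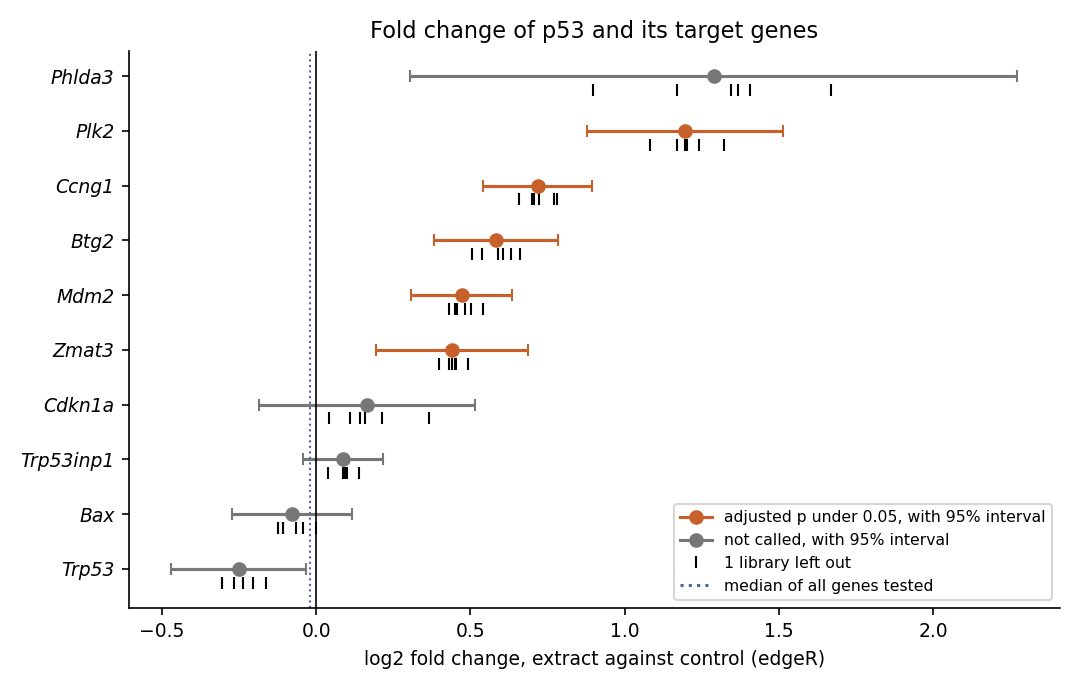
Log2 fold change of extract against control for each gene (horizontal axis, edgeR; points with 95% intervals before adjustment, orange where the adjusted p was under 0.05), with the estimates after leaving out 1 library as short black marks and the median of all genes tested as a dotted line. Plk2, Ccng1, Btg2, Mdm2 and Zmat3 were called higher; the marks of Phlda3 and Cdkn1a spread the most.

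The remaining genes act in cell death, survival and RNA control, and 1 of these 4, Zmat3, was called. Zmat3, a zinc finger protein that binds RNA (ENSMUSG00000027663, chromosome 3, gene span 32334792 to 32366014), was the lowest of the 10 with control levels of 0.429, 0.448 and 0.429 FPKM and extract levels of 0.573, 0.609 and 0.519, on 300 to 472 estimated counts. The groups did not overlap, and the controls were nearly equal. Zmat3 rose 1.36-fold (log2 fold change 0.44 ± 0.11 SE, edgeR adjusted p = 0.0186). The call was lost without extract 1 (edgeR adjusted p = 0.0568) or extract 2 (0.0710), and with limma on log2(FPKM + 0.5) (limma adjusted p = 0.156). The added 0.5 shrinks the fold change of so low a gene, here to 0.19 on the log2 scale. With 0.1 added instead, which shrinks it less, Zmat3 was not called by limma either.

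Phlda3, a small lipid-binding protein that holds back the survival kinase Akt (ENSMUSG00000041801, chromosome 1, gene span 135766119 to 135769136), stood at 1.17, 0.928 and 0.284 FPKM without extract, and with it at 1.76, 1.69 and 2.13. Every extract library was above every control, and control 3 stood far below the other controls, on 29 estimated counts against 112 and 107. Its log2 fold change of 1.29 ± 0.43 (SE) was the largest of the 10 but was not called (edgeR adjusted p = 0.0582). It was called without control 3, at 0.90 on the log2 scale (edgeR adjusted p = 0.0215), and without control 1 (edgeR adjusted p = 0.0336). It was not called without control 2 or without any of the extract libraries (edgeR adjusted p from 0.121 to 0.151). DESeq2 (adjusted p = 0.00495) and limma on FPKM (adjusted p = 0.0400) called it. Control 3 also had the lowest summed level among the controls for 7 of the 10 marker lists: hepatocyte (38413 FPKM against 47353 and 45446), red cell, B and plasma cell (87.2 against 130 and 149), T and NK cell, Kupffer cell, stellate cell (33.9 against 38.8 and 39.3) and proliferation genes (6.50 against 7.89 and 8.20). It had the highest sum for the other lists, those of neutrophils and monocytes, sinusoidal endothelium and cholangiocytes. The sum for neutrophils and monocytes was mostly Lcn2 (401 FPKM against 269 and 307). There Csf3r lay between the other controls, and the rest of the list was lowest in control 3. S100a9, for instance, was at 25.5 FPKM against 49.7 and 52.1. The hepatocyte sum was mostly Alb (25373 against 33353 and 31003), while Fgb and Hnf4a were highest in control 3 and Cps1 lay between. The part of any of these in the Phlda3 value was not tested.

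Trp53inp1, a stress protein of autophagy that also aids p53 (ENSMUSG00000028211, chromosome 4, gene span 11156431 to 11174379), was the most abundant of the 10, with control levels of 17.4, 15.3 and 16.1 FPKM and extract levels of 17.0, 16.6 and 16.2. The extract values lay within the range of the controls. On the log2 scale the difference was 0.09 ± 0.06 (SE; adjusted p = 0.293 by edgeR), with a 95% interval from -0.04 to 0.22 before adjustment.

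Bax, the protein that perforates the outer mitochondrial membrane in apoptosis (ENSMUSG00000003873, chromosome 7, gene span 45461697 to 45466898), measured 9.84, 10.9 and 10.9 FPKM across the controls, against 10.2, 10.1 and 8.45 with extract. The groups overlapped, and extract 3 was the lowest. On the log2 scale the difference was -0.08 ± 0.08 (SE; adjusted p = 0.540 by edgeR), with a 95% interval from -0.27 to 0.12 before adjustment. Of the 50-base stretches in the transcripts of Bax, 8.51% also occur in Gm45808, an overlapping gene model at 0.00 to 0.118 FPKM. Of those of Trp53, 3.88% occur in other genes, most of them in the pseudogene Trp53-ps, and the share was 2.14% or less for the other genes.

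In control, the order of the levels from high to low was Trp53inp1, Bax, Ccng1, Btg2, Trp53, Mdm2, Cdkn1a, Plk2, Phlda3 and Zmat3, and in extract it was Trp53inp1, Ccng1, Bax, Btg2, Mdm2, Trp53, Cdkn1a, Plk2, Phlda3 and Zmat3. Neighbours whose values overlapped in control were Trp53 and Mdm2, Plk2 and Phlda3, and Phlda3 and Zmat3. In extract they were Bax and Btg2, Trp53 and Cdkn1a, and Plk2 and Phlda3. The swap of Ccng1 and Bax showed in every library: the ratio of their FPKM values was 0.726, 0.604 and 0.697 in the controls and 1.16, 1.05 and 1.34 in the extract libraries, 0.676 ± 0.0637 against 1.18 ± 0.146 (SD, n = 3, two-sided exact permutation p = 0.1, again the smallest possible). This pair too was chosen after its values were seen.

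**Figure D3:**
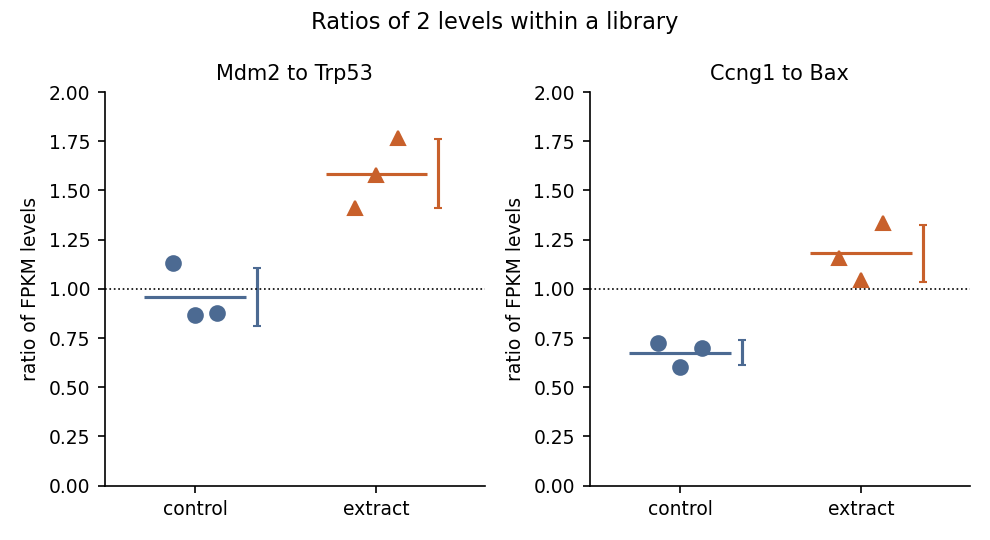
Ratio of the FPKM level of Mdm2 to that of Trp53 (left) and of Ccng1 to that of Bax (right) in each control (circles) and extract (triangles) library, with means as lines and SD as bars; the dotted line marks equal levels. Both ratios were above 1 in the 3 extract libraries, and the highest control value was 1.13 for Mdm2 to Trp53 and 0.726 for Ccng1 to Bax.

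Other p53 targets were followed in 4 lists by role, and they moved unevenly. Of 47 targets 45 were tested, 11 rose and 5 fell (24.4% and 11.1%, beside 14.2% and 12.8% of all genes), with a median log2 fold change of 0.12. The cell cycle list had the highest share, 5 of 8 tested rising and 1 falling with a median of 0.90 (edgeR). DESeq2 called 5 higher and 1 lower, beside 12.3% and 10.9% of the genes it tested. Of the 5 that limma tested, 3 were called higher and 1 lower, beside 13.9% and 20.7%. Gadd45a, a stress protein that inhibits growth, rose 3.48-fold from 0.784 ± 0.0692 to 2.67 ± 0.374 FPKM (SD, n = 3, edgeR adjusted p = 0.000244), and Ckap2, a protein of the mitotic spindle, 4.62-fold from 0.170 ± 0.0144 to 0.773 ± 0.0683 FPKM (adjusted p = 0.000226). Gtse1, a microtubule protein made in G2 that restrains p53, rose 2.12-fold, and Plk3, a kinase related to Plk2, rose 1.29-fold from 26.0 ± 0.332 to 32.0 ± 0.587 FPKM. Sertad1, a regulator of cyclin D kinases, fell by 0.90 on the log2 scale. Gadd45a, Ckap2, Plk3 and Sertad1 were called in all 6 fits with 1 library left out, while Gtse1 was not called without extract 2 (edgeR adjusted p = 0.0642). Psrc1, the remaining gene called higher, was at only 0.0624 ± 0.0320 against 0.197 ± 0.0225 FPKM and was called in 1 of those 6 fits.

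Proliferation genes moved beside the cell cycle list: 5 of 12 rose and 0 fell (edgeR), beside 14.2% and 12.8% of all genes. At an unadjusted p under 0.05, 7 were higher and 0 lower, beside 19.6% and 19.4%. DESeq2 called 5 and 0, beside 12.3% and 10.9%, and limma 3 and 0, beside 13.9% and 20.7%. The median log2 fold change was 0.55, and summed levels were 6.50 to 8.20 FPKM in control and 11.3 to 13.6 FPKM in extract. Mcm6, a subunit of the replicative helicase, made up much of that, at 0.636 ± 0.0260 against 3.03 ± 0.287 FPKM, while Mki67, a marker of cycling cells, was at 1.11 ± 0.227 against 0.819 ± 0.168 FPKM and was not called (edgeR adjusted p = 0.153). Gtse1 and Ckap2 are themselves made mainly in dividing cells. The part of dividing cells in their values was not tested.

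In the cell death list 2 of 13 genes rose (15.4%, near the 14.2% of all genes) and 0 fell (edgeR), with a median of 0.13. At an unadjusted p under 0.05, 4 were higher and 2 lower, beside 19.6% and 19.4% of all genes. DESeq2 called 3 higher and 0 lower, beside 12.3% and 10.9%, and limma 2 and 0, beside 13.9% and 20.7%. Bbc3, or Puma, which frees Bax to act, rose 1.69-fold from 1.37 ± 0.190 to 2.22 ± 0.178 FPKM (edgeR adjusted p = 0.00797), and Aen, a nuclease of apoptosis, rose 1.40-fold from 3.28 ± 0.185 to 4.40 ± 0.389 FPKM (adjusted p = 0.00274). The other 11 were not called. In the DNA repair list 1 of 8 genes rose and 2 fell (12.5% and 25.0%, beside 14.2% and 12.8% of all genes), with a median of -0.05: Pcna, the sliding clamp of DNA replication, rose 1.18-fold, Ercc5, a nuclease of excision repair, fell by 0.43 on the log2 scale, and Dyrk3, a kinase placed in this list, fell by 0.57. Pcna was not called in 4 of the 6 fits that left out 1 library, with edgeR adjusted p-values up to 0.0893, nor was Dyrk3 in any of the 6.

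In the metabolism and stress list 3 of 16 genes tested rose and 2 fell (18.8% and 12.5%), near the 14.2% and 12.8% of all genes, with a median of 0.04. Ephx1, an epoxide hydrolase that xenobiotic receptors also control, rose 2.30-fold from 58.5 ± 5.37 to 129 ± 1.61 FPKM (edgeR adjusted p = 1.94e-05). Dglucy rose 1.48-fold, and Tigar, which lowers glycolytic flux, rose 1.31-fold. Ddit4, an inhibitor of the growth kinase mTORC1 that glucocorticoids and hypoxia also induce, had the largest fall of the 4 lists, from 22.0 ± 0.368 to 5.59 ± 0.353 FPKM, a drop by 1.91 on the log2 scale (edgeR adjusted p = 4.00e-06). Gls2, the liver glutaminase, fell by 0.23 on the log2 scale. Tigar was not called in 5 of the 6 fits with 1 library left out and Gls2 in 3 of them.

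**Figure D4:**
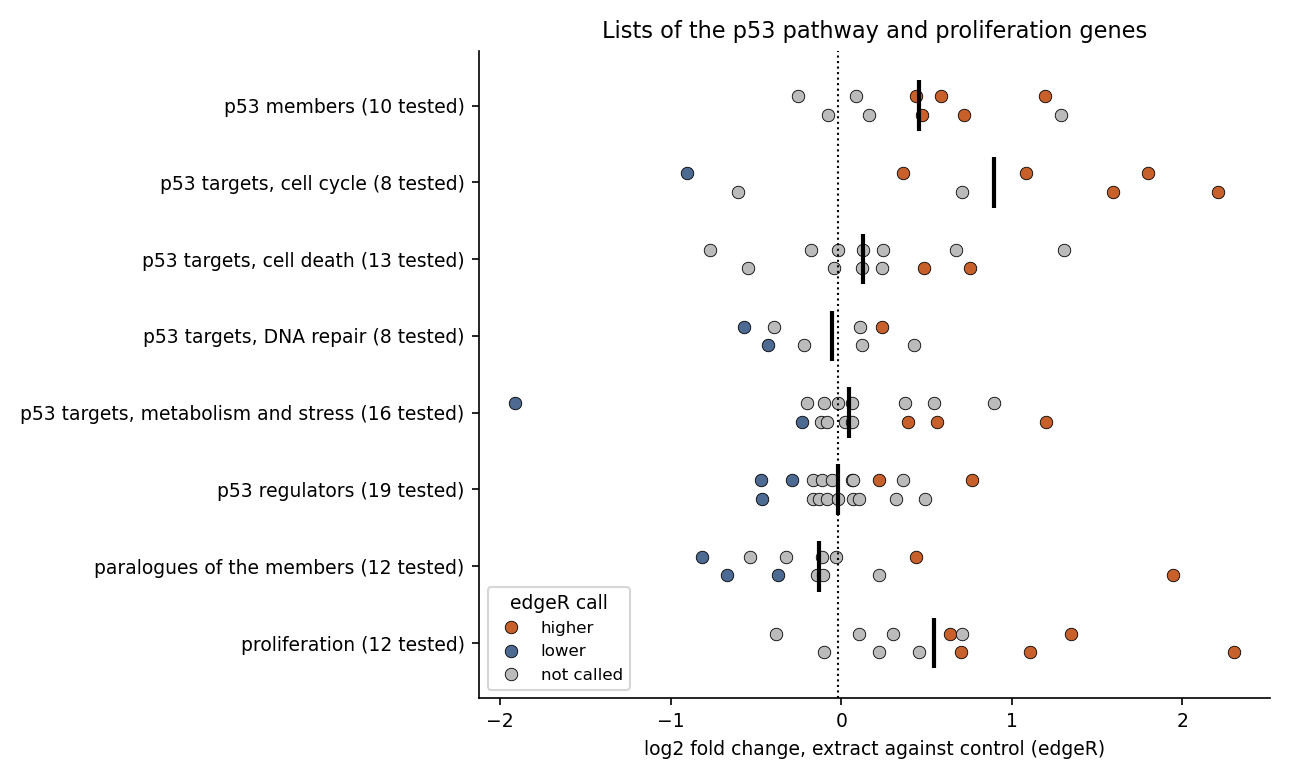
Log2 fold change of extract against control (horizontal axis, edgeR) for each gene tested in the 10 genes described here (top row), 4 lists of other p53 targets, p53 regulators, paralogues and proliferation genes; points are orange where called higher, blue where called lower and grey where not called, thick bars are list medians and the dotted line is the median of all genes tested. The median was 0.46 for the 10 genes, 0.90 for the cell cycle targets and 0.55 for the proliferation genes, and between -0.13 and 0.13 for the other p53 lists and the paralogues.

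Among 19 genes that control p53, 2 rose and 3 fell (10.5% and 15.8%, near the 14.2% and 12.8% of all genes), with a median of -0.02. Hipk2, a kinase that phosphorylates p53 in its death-promoting role, rose 1.70-fold from 1.43 ± 0.0851 to 2.33 ± 0.142 FPKM (edgeR adjusted p = 0.000347). Atr, a kinase that senses stalled replication forks, rose 1.17-fold. Sirt1, which deacetylates p53, fell by 0.47 on the log2 scale, and Ppp1r13b and Ppp1r13l, p53-binding proteins of the ASPP family, fell by 0.29 and 0.46. Atr was not called in any of the 6 fits that left out 1 library, and Sirt1 in 3 of them and the ASPP genes in 5 of 6. Mdm4, the partner of Mdm2 in restraining p53, was at 4.10 ± 0.0519 and 3.89 ± 0.0596 FPKM (log2 fold change -0.02, edgeR adjusted p = 0.799), with a 95% interval from -0.11 to 0.08 before adjustment. Its FPKM was lower in each extract library than in any control, while its fold change on TMM-scaled counts was near 0.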

How the data were processed

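RNA captured on oligo(dT) beads was sequenced from 6 mouse liver libraries, 3 control and 3 extract, per the labels' protocols. Tools listed in the submitters' processing notes, without roles or settings, are edgeR, StringTie 1.3.4d, HISAT2 2.0.4 and cutadapt 1.9. The sources used here name no genome build; the spans of all 10 genes equal those of GENCODE M21 on GRCm38. The deposited table holds estimated counts, not normalized, and FPKM as scaled by the authors for gene length and mapped fragments, per the file headers. Low estimated counts peak at 4, so 1 read pair may add about 4 counts and the 29 of Phlda3 in control 3 may be about 7 pairs. Another 6 columns of per-sample values match no sample and were not used.

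Estimated counts, already whole, went into the quasi-likelihood test of edgeR 4.0.16 (R 4.3.3, TMM factors, default filterByExpr, two-sided, Benjamini-Hochberg over 18071 genes, threshold 0.05); SE and intervals follow from the F statistic. Alternatives were DESeq2 1.42.0, limma 3.58.1 on log2(FPKM + 0.5) and the settings in the closing section. The steps were tested on simulated data. The genes, lists and promoter motif were chosen with earlier results of these data known. All 10 genes are given, and from each other p53 list up to 4 genes called in each direction with the smallest p. Mdm4, Psrc1, Mcm6, Mki67 and the marker genes of hepatocytes, neutrophils and monocytes were named outside that rule, after their values were seen. Protein identity between paralogues, also planned, was not computed. Strand is not stated, so reads of overlapping genes cannot be told apart.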

Additional observations from a re-analysis of the deposited data

How the results depend on the processing

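Plk2, Ccng1, Btg2 and Mdm2 were called higher under every alternative that tested them. With limma on genes of at least 5 mean FPKM, 5 of the 10 genes were tested and 3 called. In that fit 10 of the 20 tested in the wider p53 lists were called, beside 2460 of 4882 genes in all (50.4%, 1089 higher, 1371 lower). Leaving out 1 library gave 4 to 7 called of the 10, and 15 to 23 of the 76 to 78 tested in the wider lists. Over all genes it gave 3237 to 4706 calls (17.1% to 24.9%), with 1776 to 2553 higher and 1442 to 2153 lower. Phlda3 was called with DESeq2 (1.296 on the log2 scale), counts divided by 4 (1.27), and limma on FPKM with a pseudocount of 0.5 (0.94) or 1 (0.71) or with TMM factors (0.99), and ran from 0.90 to 1.67 with 1 library left out. Zmat3 was not called with limma at a pseudocount of 0.5 (0.19, also with no filter on low values), 0.1 (0.32) or 1 (0.13) or with TMM factors (0.23), and ran from 0.40 to 0.49 with 1 library left out; Cdkn1a ran from 0.041 to 0.36. On FPKM with limma and no filter, 1485 genes were higher. Of all calls, 52.6% were higher in the main test, 40.2% with limma on FPKM and 57.6% after TMM factors on FPKM.

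Deviations of same-numbered libraries from their group means correlated at -0.12, -0.03 and -0.09, and those of unlike-numbered libraries at -0.07 to 0.15. Such correlations cannot settle whether the replicate numbers pair the libraries. With the replicate number as a block, 3746 genes were called instead of 4870, and Zmat3 stood at 0.44 (edgeR adjusted p = 0.0502). Phlda3 was not called there either (edgeR adjusted p = 0.0870). Phlda3, with 29 to 226 counts in a library, had the largest SE of the 10 genes (0.43 on the log2 scale).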

Other observations

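Among paralogues of the 10 genes, 2 of 12 tested rose and 3 fell (edgeR; 16.7% and 25.0%, beside 14.2% and 12.8% of all genes), with a median log2 fold change of -0.13 beside -0.02 over all genes. Phlda1, a relative of Phlda3 that many growth and stress signals induce, had control levels of 9.06, 10.7 and 10.8 FPKM and extract levels of 36.2, 39.2 and 37.4, with a wide gap between the groups. It rose 3.85-fold (log2 fold change 1.94 ± 0.07 SE, edgeR adjusted p = 4.24e-06). Trp53inp2, a relative of Trp53inp1 that acts in autophagy, rose 1.36-fold from 38.7 ± 0.575 to 50.3 ± 0.817 FPKM (SD, n = 3, edgeR adjusted p = 0.000117), while Trp53inp1 itself was not called.

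Ccng2, the second cyclin G, went the other way from Ccng1: it fell by 0.37 on the log2 scale, from 2.13 ± 0.169 to 1.57 ± 0.0969 FPKM (edgeR adjusted p = 0.0211, not called in 4 of the 6 fits with 1 library left out). Cdkn1c, the p57 relative of p21, fell by 0.82 on the log2 scale at under 1 FPKM on average, and was also not called in 4 of the 6. Bcl2l1, which encodes the survival protein Bcl-xL, went from 8.81 ± 0.263 to 5.30 ± 0.215 FPKM and fell by 0.67 on the log2 scale (edgeR adjusted p = 0.000133), called in all 6. The other 7 relatives tested were not called, and 3 did not pass the filter on low counts.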
